A study of Sus scrofa with 16 samples.

Results

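Accessible chromatin regions of newborn liver were compared directly with those of adult liver, with nothing taken from the stage between them. The members are the 220274 peaks on chromosomes 1 to 18 in the merged lists of the 2 ages, out of 798988 peaks in the 8 lists of the series. Newborn liver gave 115504 of them and adult liver 104770. A peak of either list was called shared when it overlapped a peak of the other list by at least 1 bp, and otherwise newborn-only or adult-only. The comparison was then repeated with the 104770 top-ranked peaks of each list, and each class was read against genes, pathways, DNA sequence and 5 other newborn tissues.

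The study profiled chromatin with ATAC-seq, in which a transposase cuts and tags DNA that is not packed tightly, in 6 newborn pig tissues and in liver at 3 ages. Both liver groups used here came from female crossbred domestic pigs, labelled day 0 and day 180, with 2 replicates each, and the study describes full-sib animals of a Berkshire and Tibetan cross. Nuclei came from frozen whole liver, so hepatocytes, blood cells, vessel cells and fibroblasts were measured together. Fewer cells of a type and less open chromatin per cell cannot be told apart in such samples.

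The liver of a fetus is a site of blood formation, where red cells mature among immature hepatocytes. Around birth this task passes to the bone marrow, and the hepatocytes take up the full range of adult work, which includes bile acid and sterol synthesis, drug metabolism, the storage of fuel and the secretion of plasma proteins. Enhancers, the distal elements that transcription factors of the GATA, C/EBP, HNF and ONECUT families bind, lie in open chromatin when in use.

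The libraries were uneven before any comparison. The −log10 p of a peak, which measures how far its fragments exceed the local background and grows with sequencing depth, had a median of 24.9 in newborn replicate 1 and 8.66 in newborn replicate 2. In adult liver the medians were 18.4 and 26.1. Across peaks the replicates had a Spearman rho of 0.518 in newborn and 0.769 in adult liver, a description over peaks of the same list that are not independent replicates. The irreproducible discovery rate (IDR), the share of false matches expected between replicates, was 0.05 or lower for 19.2% of newborn and 50.3% of adult peaks. Strength was therefore used only to rank peaks inside a list, by the smaller of the replicate values. Each list is 1 pooled sample, so no difference between the ages has a replicate check and no test was made. Intervals are 95% Wilson intervals of shares and cover counting error only. A peak missing from a list was not called there, and its absence was not measured.

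Sequences of 150 bases from 4 newborn-only and 6 adult-only peaks show the kinds of element that the ages did not share. All come from the Sscrofa11.1 assembly of RefSeq, lie outside annotated exons and within a deposited peak, and are written 5′ to 3′. Capitals mark the letters that matched a consensus described further on. They were picked to show such matches in genes of interest, so the presence of a match in them is no finding.

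The newborn-only windows were taken from NFE2, an erythroid transcription factor (chr5:19497767-19497916, plus strand), from an intron of SPTB, the beta spectrin of the red cell membrane (chr7:88914604-88914753, plus strand), from the bases before the start of AHSP, the chaperone of alpha globin (chr3:17060344-17060493, minus strand), and from the strongest newborn-only peak with a CTCF match outside promoters and exons (chr16:48874833-48874982, plus strand).
NFE2: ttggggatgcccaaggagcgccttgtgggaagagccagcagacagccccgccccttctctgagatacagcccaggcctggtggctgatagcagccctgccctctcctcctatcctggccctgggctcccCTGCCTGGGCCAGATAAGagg
SPTB: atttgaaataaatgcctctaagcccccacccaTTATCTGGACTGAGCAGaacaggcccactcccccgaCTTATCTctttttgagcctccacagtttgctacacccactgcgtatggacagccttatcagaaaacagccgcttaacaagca
AHSP: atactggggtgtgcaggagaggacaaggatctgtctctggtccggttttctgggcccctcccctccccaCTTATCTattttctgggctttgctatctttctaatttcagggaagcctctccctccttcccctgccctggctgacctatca
CTCF match: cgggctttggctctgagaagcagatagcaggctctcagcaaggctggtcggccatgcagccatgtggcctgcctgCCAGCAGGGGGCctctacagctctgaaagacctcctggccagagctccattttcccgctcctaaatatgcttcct
The letters CTTATCT in AHSP and SPTB are the GATA consensus read on the other strand. In NFE2 and SPTB the capitals also cover a composite of the CTG half-site of TAL1 with a GATA site, the arrangement that GATA1 and TAL1 bind together in red cell precursors.

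The adult-only windows were taken from the bases before the start of ALB, the gene of serum albumin (chr8:69643277-69643426, plus strand), and of C5, a complement protein (chr1:261088869-261089018, minus strand), from introns of SOX5 (chr5:49765566-49765715, plus strand), of GHR, the growth hormone receptor (chr16:27254814-27254963, plus strand) and of APOB, the protein core of lipoproteins (chr3:117260618-117260767, plus strand), and from the strongest adult-only peak with a DBP match (chr9:114571376-114571525, plus strand).
ALB: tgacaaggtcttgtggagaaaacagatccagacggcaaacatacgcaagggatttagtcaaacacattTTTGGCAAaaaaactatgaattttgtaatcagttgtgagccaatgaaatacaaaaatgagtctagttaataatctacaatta
C5: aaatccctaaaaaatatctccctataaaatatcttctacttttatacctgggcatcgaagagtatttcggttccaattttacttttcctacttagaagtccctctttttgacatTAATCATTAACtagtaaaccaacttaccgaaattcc
SOX5: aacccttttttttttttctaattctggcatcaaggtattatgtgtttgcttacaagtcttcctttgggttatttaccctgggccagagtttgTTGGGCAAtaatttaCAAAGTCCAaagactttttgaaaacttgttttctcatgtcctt
GHR: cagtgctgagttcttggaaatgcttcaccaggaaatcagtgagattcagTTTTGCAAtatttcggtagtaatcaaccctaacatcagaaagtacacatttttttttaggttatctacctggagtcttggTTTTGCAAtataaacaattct
APOB: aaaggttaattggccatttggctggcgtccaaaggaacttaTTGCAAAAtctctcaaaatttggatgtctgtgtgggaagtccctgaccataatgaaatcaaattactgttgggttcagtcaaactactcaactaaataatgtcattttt
DBP match: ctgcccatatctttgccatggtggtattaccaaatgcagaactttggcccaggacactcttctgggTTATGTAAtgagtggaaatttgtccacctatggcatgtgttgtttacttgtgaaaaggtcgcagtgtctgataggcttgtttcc
The capitals are a C/EBP match in ALB and APOB, 2 such matches in GHR, a C/EBP and an HNF4A match in SOX5, and an HNF1 match in C5.

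Of the newborn peaks, 39313 (34.0%, interval 33.8 to 34.3%) overlapped no adult peak. Of the adult peaks, 29661 (28.3%, interval 28.0 to 28.6%) overlapped no newborn peak. These shares are the background against which smaller sets of peaks are read here. With 104770 peaks taken from each list, the counts were 32446 newborn-only peaks (31.0%) and 33199 adult-only peaks (31.7%), so the order of the ages turned once the newborn list lost its surplus. Because the adult list entered whole, those 32446 peaks are by construction part of the 39313, and the 33199 include all 29661. On single chromosomes the newborn-only share of the full lists ran from 30.2% on chromosome 12 to 36.8% on chromosome 18. The adult-only share ran from 24.4% on chromosome 12 to 31.1% on chromosome 11.

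Strong peaks were almost always shared when set against the whole other list. Among the 1000 strongest newborn peaks 0 lacked an overlap in the whole adult list (interval up to 0.383%). Among the 1000 strongest adult peaks 3 lacked one. Of the 20000 strongest, 702 newborn peaks (3.51%) and 919 adult peaks (4.60%) were stage-only. The share then climbed with falling strength, from 0.58% in the first 5000 newborn ranks to 62.4% in ranks 110001 to 115000, and from 0.70% to 51.7% over the adult ranks. The 3 stage-only peaks among the first 1000 adult ranks, named after their values were seen, were an intergenic interval of 141 bp nearest to TTL (3016 and 2146), an intronic one of 72 bp nearest to GRM7 (630 and 398) and an intergenic one of 559 bp nearest to TNP1 (384 and 314). The intervals at TTL and GRM7 were far narrower than the median adult peak of 450 bp. Most stage-only peaks were thus weak in their own list, and the classes describe mainly the weaker end of both lists. When the 20000 strongest peaks of each list were compared only with each other, 9035 newborn and 9068 adult peaks had no overlap.

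**Figure D1:**
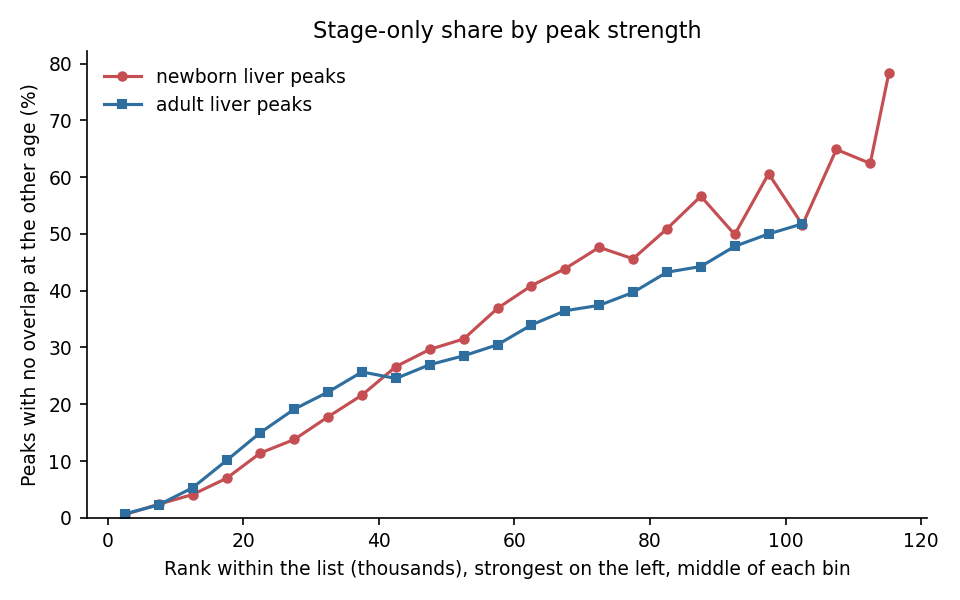
The share of peaks without an overlap at the other age (vertical axis, %) is plotted by rank within the list (horizontal axis, divided by 1000, in bins of 5000), with circles for newborn and squares for adult liver. Both lines start under 1% and climb to over 50%, and the last newborn bin holds 504 peaks.

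Stage-only peaks were also narrower than shared ones. Newborn-only peaks had a median width of 285 bp and shared newborn peaks 548 bp, and in adult liver the medians were 300 and 538 bp. An IDR of 0.05 or lower was reached by 911 newborn-only peaks (2.32%) against 27.9% of shared newborn peaks. It was reached by 8126 adult-only peaks (27.4%) against 59.4% of shared adult peaks. Most peaks of both stage-only classes thus had an IDR above 0.05, and nearly all newborn-only ones did.

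Both stage-only classes lay away from gene starts. Promoters, meaning the 2.2 kb before and the 500 bp after a RefSeq start site, held 6.81% of newborn-only peaks, 5.59% of adult-only peaks and 19.9% of shared newborn peaks. Introns outside promoters and exons held 51.3% of adult-only, 46.5% of newborn-only and 37.8% of shared newborn peaks. Intergenic sequence held 38.1% of newborn-only and 34.3% of adult-only peaks. The median distance to a start site was 28.8 kb for newborn-only, 26.4 kb for adult-only and 17.8 kb for shared newborn peaks. With an equal number of peaks per list the promoter shares were 6.81% and 6.49%, so the small surplus of promoters among newborn-only peaks shrank to 0.329 percentage points.

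Newborn-only peaks were found more often in other newborn organs. At least 1 of newborn kidney, spleen, lung, heart and muscle had an overlapping peak for 62.4% (interval 61.9 to 62.8%) of newborn-only peaks, against 32.6% (interval 32.1 to 33.1%) of adult-only and 77.0% of shared newborn peaks. Kidney held 42.1% of newborn-only and 12.8% of adult-only peaks, spleen 28.6% and 13.1%, lung 23.0% and 9.68%, heart 20.4% and 8.75%, and muscle 10.4% and 7.74%. After the lists were brought to equal number the shares in any organ were 64.1% and 36.6%. Among the stage-only peaks of the 20000 strongest they were 67.1% and 36.3%. In that set muscle alone went the other way, with 13.5% of newborn-only and 18.6% of adult-only peaks. The other organs came from the same newborn animals as the newborn livers, and no adult organ other than liver was profiled, so age, animal and tissue cannot be told apart in these overlaps.

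**Figure D2:**
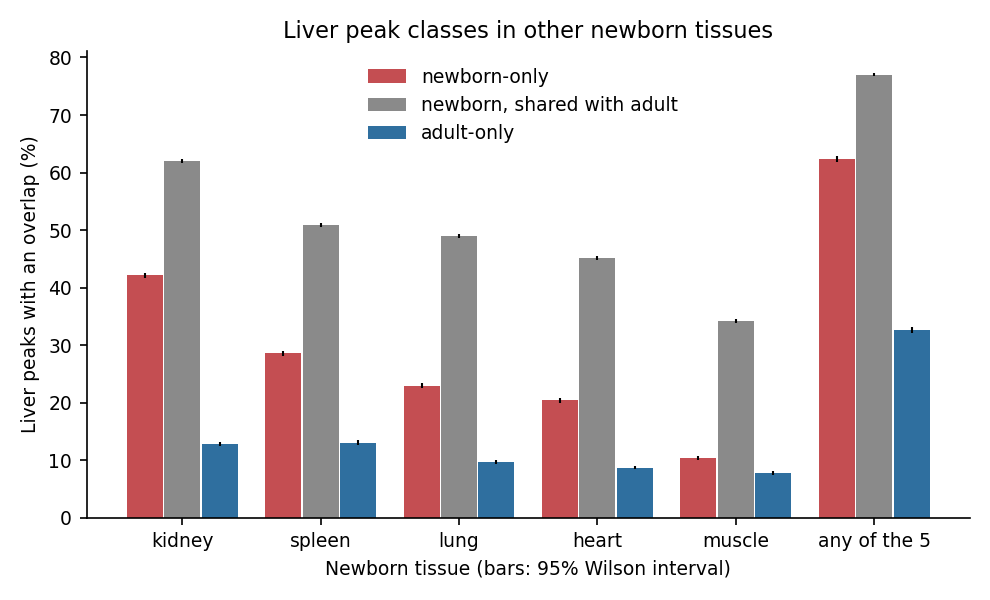
Bars give the share of liver peaks (vertical axis, %) that overlap a peak of each newborn tissue (horizontal axis) for newborn-only, shared newborn and adult-only peaks, with 95% Wilson intervals. In each tissue the shared peaks stand highest and the adult-only peaks lowest, with 12.8% of adult-only and 42.1% of newborn-only peaks in kidney.

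At promoters the ages were far more alike. Of 18725 protein-coding genes, 12911 had a promoter peak at both ages and 4503 at neither. A promoter peak in newborn liver alone was listed for 1016 genes (5.43%) and in adult liver alone for 295 genes (1.58%). With an equal number of peaks these were 876 (4.68%) and 590 genes (3.15%). When only peaks with an IDR of 0.05 or lower entered from both lists, the order reversed to 716 (3.82%) and 3133 genes (16.7%), beside 22203 newborn and 52733 adult peaks that met this limit. The stage-only promoter peaks were weak: their median rank was 70118 of 115504 in newborn and 68841 of 104770 in adult liver, against 12477 and 11097 for genes open at both ages.

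The members of 22 lists of cell type markers and pathway genes were then looked up. Of 488 names, 467 matched a protein-coding gene on these chromosomes. Since few promoters changed class, a count added after the promoter results were seen was made too: the stage-only peaks whose nearest start site within 50 kb belonged to a list member. Over all protein-coding genes there were 25520 such newborn-only and 19497 such adult-only peaks, so 56.7% were newborn-only, or 48.8% with an equal number of peaks per list. At least 1 newborn-only peak was counted this way for 57.5% of genes and at least 1 adult-only peak for 44.8%. Each list is read against those shares.

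Red cell genes had more newborn-only promoters than any other list, except under the IDR limit. Of 23 matched erythroid genes 8 (34.8%, against 5.43% of all genes) had a promoter peak in newborn liver alone and 0 in adult liver alone, and 8 had one at both ages. With an equal number of peaks the counts were again 8 and 0. Among these genes were NFE2, GFI1B, SLC4A1, EPB42, AHSP, TRIM58 and HBB. With the IDR limit in both lists 1 erythroid gene was newborn-only and 2 were adult-only, where 3.82% and 16.7% of all genes were. Around the 23 genes lay 54 newborn-only and 11 adult-only peaks, so 83.1% were newborn-only (76.9% with an equal number). Of the genes, 18 had more newborn-only than adult-only peaks and 2 had fewer. Taking the intervals of 1 replicate in place of the merged ones at either age left 8 newborn-only promoters, and the newborn-only share around the genes ranged from 82.1 to 83.1%. That swap keeps the same peaks, all called in both replicates, so it could hardly change these values and is no check on them.

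The promoter peak of NFE2, a factor that drives globin genes, was the strongest of the 8, with a −log10 p of 34.0 in newborn replicate 1 and 21.7 in replicate 2 (IDR 0.10). HBB, which encodes beta globin, had 66.6 and 12.2 (IDR 0.0676). SLC4A1, the anion exchanger band 3, had 33.7 and 9.88 (IDR 0.117). For AHSP the values were 42.1 and 8.68, and for TRIM58, a ubiquitin ligase of late red cell precursors, 62.8 and 9.33. All of these were stronger in replicate 1, the library with the higher values over all peaks.
EPB42, of the red cell membrane skeleton, was the most uneven, with 85.8 in replicate 1 but 4.85 in replicate 2. GFI1B, a repressor of red cell and platelet development, was weak in both, with 5.43 and 6.30. None of the 8 peaks reached an IDR of 0.05. Globin genes are near-identical copies of each other in part, and reads that fit several of them may have been lost to the filter on mapping quality, so values at HBB and HBE1 are uncertain.

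Other red cell genes carried newborn-only peaks outside the promoter. GYPC, a membrane glycoprotein, had 6 newborn-only and 0 adult-only nearest peaks, and SPTB had 4 and 0. RHAG, the Rh-associated glycoprotein, had 4 and 0. TAL1 and LMO2, factors of blood stem cells and red cells, each had 4 newborn-only and 1 adult-only peak. TFRC, the transferrin receptor through which cells take up iron, went the other way with 1 and 5. GATA1 and ALAS2 lie on the X chromosome and were outside the comparison, and KLF1 and HEMGN had no promoter peak and no nearest stage-only peak at either age.

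Markers of blood progenitors, platelets and myeloid cells leaned the same way by smaller margins in the full lists. Their promoter counts did not under the IDR limit, where promoters of all genes turned to adult-only as well. Of 18 progenitor and platelet genes 2 had a newborn-only promoter (5.43% of all genes did) and 0 an adult-only one, and 47 newborn-only and 25 adult-only peaks lay around them (65.3% newborn-only). CD34, a surface marker of blood stem and vessel cells, had promoter values of 7.86 and 6.17. MECOM and ERG, factors of blood stem cells, had 8 and 7 newborn-only peaks beside 1 adult-only peak each. Much of the newborn-only surplus of this list lay at these 2 genes. Of the 18 genes 10 had more newborn-only than adult-only peaks and 3 had fewer. ERG is also in the endothelial list, so its peaks count in both. Of 24 myeloid and Kupffer cell genes 4 (16.7%, against the same 5.43%) had a newborn-only and 1 an adult-only promoter, with 39 and 18 peaks around them.
The 4 were S100A8, S100A9, LYZ and CSF3R, genes of granulocytes and monocytes, and the strongest peak among them was that of S100A8 with 30.4 and 14.8. The adult-only promoter was that of ELANE, the neutrophil elastase, at 6.83 and 5.61. With an equal number of peaks the newborn-only shares around both lists fell to 56.5% and 57.1%, against 48.8% for all genes. With the IDR limit in both lists the promoter counts turned to 0 newborn-only and 7 adult-only genes for progenitors and platelets, and to 1 and 4 for myeloid cells. Of all genes 3.82% were newborn-only and 16.7% adult-only under that limit. The myeloid counts, out of 24 genes, lay near those shares.

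Genes of fetal growth had mostly newborn-only peaks around them. Near the 22 genes lay 79 newborn-only and 17 adult-only peaks (82.3% newborn-only, or 77.5% with an equal number), and 15 genes had more newborn-only peaks while 2 had fewer. At the promoter 3 genes (13.6%, against 5.43% of all genes) were newborn-only and 0 adult-only, or 3 and 1 with an equal number. With the IDR limit in both lists 2 were newborn-only and 5 adult-only, where 3.82% and 16.7% of all genes were. LIN28B, which blocks the maturation of let-7 microRNAs, had the only newborn-only promoter in all 22 lists with an IDR of 0.05 or lower, at 63.5 and 16.9 (IDR 0.0479), and 10 newborn-only and 0 adult-only peaks from its promoter to its end. IGF2BP1, an RNA-binding protein of the same fetal programme, had promoter values of 46.9 and 9.75, with 7 newborn-only and 0 adult-only nearest peaks. PEG10, an imprinted gene, had 14.1 and 4.17.
TRIM71, another let-7 pathway gene, kept a promoter peak at both ages but had 15 newborn-only and 0 adult-only peaks nearest to it. IGF2BP3 had 4 and 0, MEST 5 and 0, and IGF2, the main fetal growth factor of this family, 5 and 1. AFP, the albumin of the fetus, had no promoter peak at either age, and 1 newborn-only and 2 adult-only peaks.

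Cell cycle genes had open promoters throughout. Of 22, 21 had a promoter peak at both ages and PLK1, a mitotic kinase, had one in adult liver alone, with 24.5 and 41.8 (IDR 0.00794). Around the list lay 31 newborn-only and 11 adult-only peaks (73.8% newborn-only, or 69.2% with an equal number). MKI67, the proliferation marker, accounted for 7 and 0 of them, and RRM2 and E2F8 for 4 and 0 each.

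T and NK cell genes had more adult-only promoters than any other list, except under the IDR limit. Of 24 T and NK cell genes 6 (25.0%, against 1.58% of all genes) had a promoter peak in adult liver alone and 0 in newborn liver alone, and 15 had one at both ages. With an equal number of peaks 8 were adult-only, against 3.15% of all genes. With the IDR limit in both lists 5 were, against 16.7% of all genes. Under that limit 16 of 27 drug metabolism genes and 14 of 29 plasma protein genes were adult-only. CD2, a T cell adhesion receptor, had −log10 p values of 17.2 in adult replicate 1 and 41.9 in replicate 2 (IDR 0.0204). CD3D and CD3G, which encode chains of the T cell receptor complex, share 1 peak between their starts, at 7.24 and 20.2. NCR1, an NK cell receptor, had 8.85 and 11.7, and TBX21, the factor of type 1 responses, 5.30 and 7.01.
All 6 genes had the higher value in adult replicate 2. Around the list lay 48 newborn-only and 50 adult-only peaks, so 49.0% were newborn-only, against 56.7% for all genes. With an equal number of peaks the share was 40.0%, against 48.8%, so the list leaned to adult by a small margin. Single genes went both ways: CD247, the zeta chain of the receptor, had 4 newborn-only and 13 adult-only peaks, and CD5 had 5 and 1. Among 15 B and plasma cell genes MS4A1 (9.62 and 24.8) and CD27 (3.05 and 7.19) were adult-only and BLK (3.82 and 6.31) newborn-only at the promoter. These are 13.3% and 6.67% of the list, against 1.58% and 5.43% of all genes. With an equal number of peaks 2 genes of this list were adult-only and 0 newborn-only. Around these 15 genes lay 22 newborn-only and 16 adult-only peaks (57.9% newborn-only, near the share of all genes).

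The remaining cell types of the liver differed little at promoters, except under the IDR limit. None of 17 endothelial genes had a stage-only promoter, which 5.43% (newborn) and 1.58% (adult) of all genes had. Around the 17 genes lay 50 newborn-only and 27 adult-only peaks, 7 and 0 of them at VWF and 5 and 0 at SOX17. The peaks of ERG count here as well as in the progenitor list. The newborn-only share was 64.9% (58.6% with an equal number), against 56.7% (48.8%) for all genes. COL3A1 and HAND2 of 20 stellate cell and fibroblast genes had weak adult-only promoters (5.30 and 8.75 for COL3A1, 11.9 and 10.6 for HAND2). That list had 33 newborn-only and 31 adult-only peaks around it (51.6% newborn-only). Among 15 bile duct genes AQP1, a water channel, was newborn-only (21.9 and 10.9) and SOX9, a duct and progenitor factor, adult-only (30.8 and 9.67). Around the bile duct list lay 34 newborn-only and 25 adult-only peaks, 0 and 5 of them at SOX9. Its newborn-only share of 57.6% (48.1% with an equal number) was near that of all genes. With the IDR limit in both lists 7 endothelial, 6 stellate cell and fibroblast and 6 bile duct genes had an adult-only promoter. In the same order 0, 1 and 1 had a newborn-only one. Of all genes 16.7% were adult-only and 3.82% newborn-only under that limit.

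**Figure D3:**
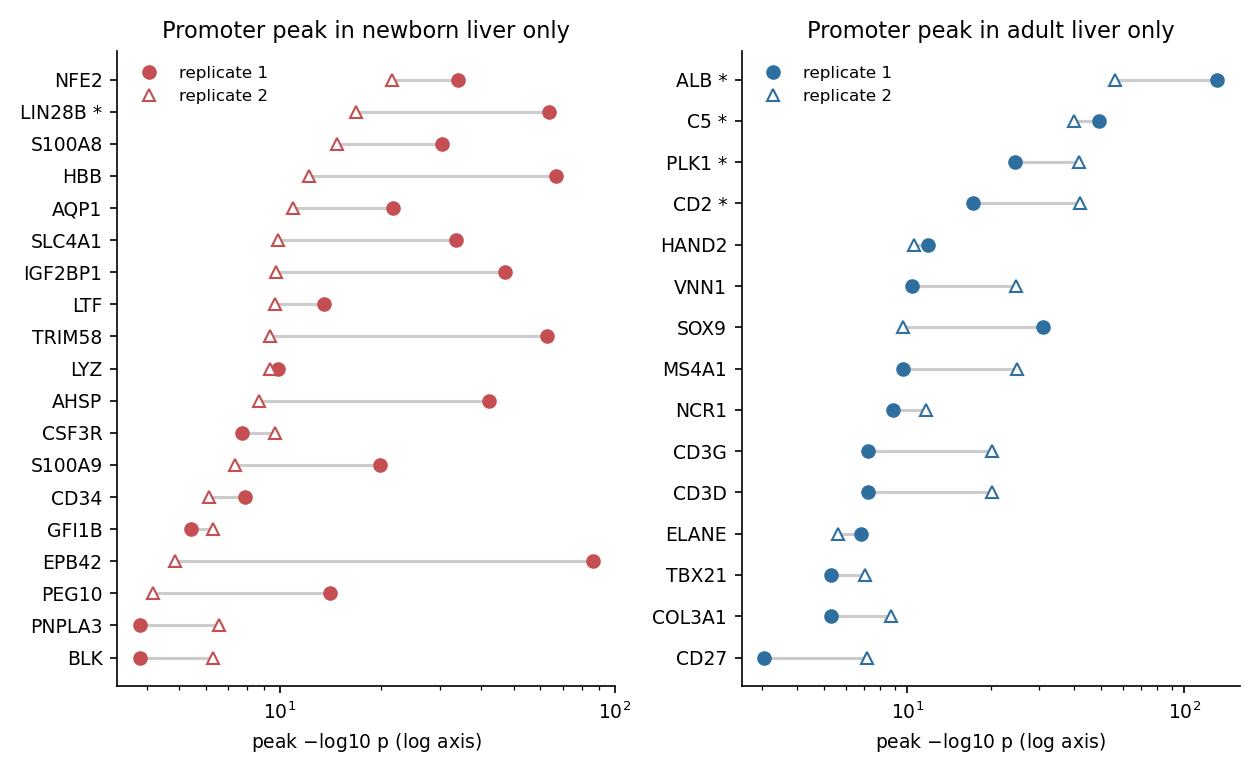
Each row is a reported list gene with a promoter peak at only 1 age, and the symbols give the −log10 p of that peak in replicate 1 (filled circle) and replicate 2 (open triangle) on a log axis, newborn liver on the left and adult liver on the right. An asterisk marks an IDR of 0.05 or lower, reached by LIN28B on the left and by ALB, C5, PLK1 and CD2 on the right. Values are not comparable between the panels.

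Metabolic genes of the adult liver had more adult-only than newborn-only peaks around promoters that were open at both ages. For drug and toxin metabolism 26 of 27 genes had promoter peaks at both ages and 0 changed class, yet 27 newborn-only and 117 adult-only peaks surrounded them. The newborn-only share was thus 18.8% (16.1% with an equal number) against 56.7% for all genes, and 21 genes had more adult-only than newborn-only peaks while 1 had fewer. CYP3A22, a cytochrome P450 of the main drug-oxidising family, had 0 newborn-only and 12 adult-only peaks. CYP3A46 had 0 and 11, CYP3A29 0 and 9, and CYP2E1, which oxidises ethanol, 0 and 8. ALDH1A1, which makes retinoic acid, had 0 and 11, and AHR, the dioxin receptor, 0 and 6. CYP2D25 was the exception with 4 and 2. The CYP3A genes are close copies in 1 cluster, so peaks there may be assigned with error.

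Sterol synthesis and bile acid genes gave the same picture. All 21 sterol genes had a promoter peak at both ages, with 20 newborn-only and 81 adult-only peaks around them (19.8% newborn-only, or 18.2% with an equal number). MSMO1, which removes methyl groups from sterol precursors, had 1 and 12, SC5D 0 and 8 and SQLE 0 and 6. All 19 bile acid genes were open at both ages, with 22 newborn-only and 75 adult-only peaks (22.7% newborn-only). With the IDR limit in both lists 3 sterol and 6 bile acid genes had an adult-only promoter, against 16.7% of all genes.
AKR1D1, a reductase of bile acid synthesis, had 4 and 12, SLCO1B3, a hepatic uptake carrier, 2 and 12, NR1H4, the bile acid receptor FXR, 3 and 10, and CYP27A1 1 and 8. CYP7A1, the rate-limiting enzyme of the pathway, had 1 newborn-only and 0 adult-only peaks.

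Fuel genes leaned to the adult list as well. Around 21 genes of fat synthesis and sugar use lay 26 newborn-only and 63 adult-only peaks (29.2% newborn-only), with 0 and 11 at GPAM, which starts triglyceride synthesis, 0 and 8 at GYS2, the liver glycogen synthase, and 1 and 7 at ACACA. FASN had 2 and 1, and PNPLA3, a lipase of lipid droplets, had a weak newborn-only promoter peak with 3.82 and 6.58. With an equal number of peaks 0 genes of this list had a newborn-only promoter. Around 23 genes of fatty acid oxidation and ketone bodies lay 32 and 49 peaks (39.5%), and VNN1, a target of PPAR alpha, had the 1 stage-only promoter there, at 10.4 and 24.8 in adult liver.
The 26 genes of glucose production, amino acids and urea were the closest of these 3 lists to the background, with 65 and 79 peaks (45.1% newborn-only). Genes of this list went both ways: ARG1 had 3 newborn-only and 10 adult-only peaks and GOT1 2 and 8, whereas ASS1 had 11 and 5, CPS1 7 and 3 and CTH 6 and 1. ARG1, ASS1 and CPS1 are all enzymes of the urea cycle.

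Plasma proteins gave the strongest adult-only promoters of any list. ALB had an adult-only promoter peak of 1286 bp with 131 in replicate 1 and 56.2 in replicate 2 (IDR 0.00603), at rank 24744 of the adult list. C5 had 49.2 and 40.0 (IDR 0.00589). The ALB gene was not closed in newborn liver: 7 shared and 1 newborn-only peaks lay between 2.2 kb upstream and its end, beside 9 adult-only ones. The other 27 of 29 plasma protein genes had promoter peaks at both ages, and 38 newborn-only and 84 adult-only peaks surrounded the list (31.1% newborn-only). TTR, the carrier of thyroxine, had 1 and 9, APOB 2 and 11 and C3 2 and 6, while ITIH4 had 6 and 4 and SERPINA1 4 and 1.

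Among the list genes GHR had the largest surplus of adult-only peaks. Around 22 genes of the hormone axis lay 38 newborn-only and 93 adult-only peaks (29.0%, or 20.9% with an equal number), and all 22 promoters were open at both ages. With the IDR limit in both lists 8 of the 22 were adult-only, against 16.7% of all genes. GHR had 1 newborn-only and 23 adult-only peaks and THRB, a thyroid hormone receptor, 6 and 14. IGF1, the product of growth hormone action in liver, had 3 and 7, and NR3C1, the glucocorticoid receptor, 1 and 4. HSD11B1 had 4 and 1.
Of 23 hepatocyte transcription factors all had promoter peaks at both ages, with 45 newborn-only and 91 adult-only peaks around them (33.1%). ZBTB20, a repressor of AFP, had 6 and 19, ONECUT2 1 and 10, NR5A2 2 and 7 and FOXA1 0 and 5, whereas GATA4 had 4 and 2 and GATA6 3 and 1.

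Clock, iron and interferon genes also had more adult-only than newborn-only peaks around them. All 19 clock and 24 interferon and antigen presentation genes had promoter peaks at both ages, with 41 and 57 peaks (41.8% newborn-only) and 24 and 38 peaks (38.7%) around them. With the IDR limit in both lists 3 clock and 12 interferon and antigen presentation genes had an adult-only promoter, against 16.7% of all genes. Within the clock list NPAS2 had 1 and 8 and NFIL3 2 and 7, while ARNTL had 11 and 7 and CLOCK 6 and 2. Iron genes had 22 and 32 peaks (40.7%), FTH1 0 and 7 of these, and the newborn-only promoter of LTF, the lactoferrin of milk and granulocytes, had values of 13.6 and 9.67.

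**Figure D4:**
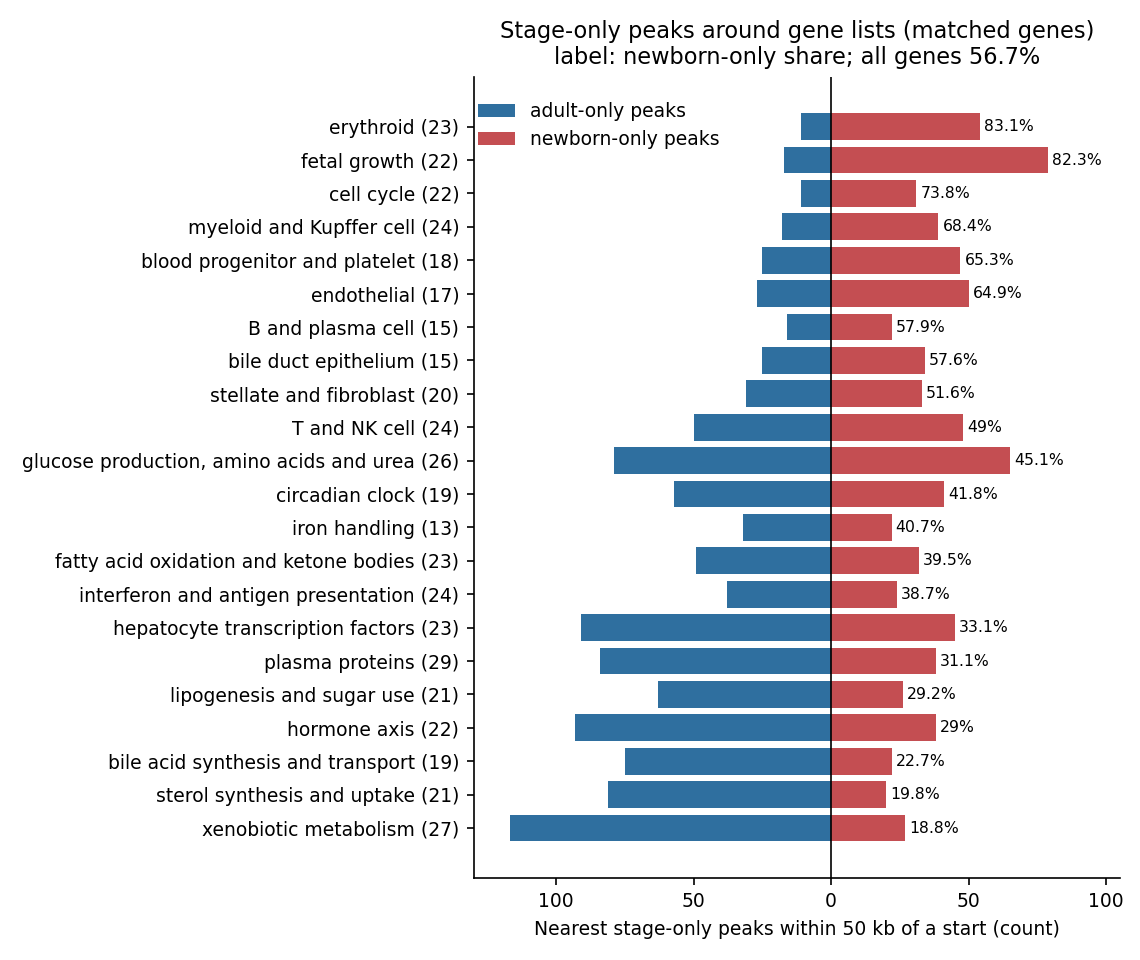
Bars count, for each list with its number of matched genes, the newborn-only peaks (right) and adult-only peaks (left) whose nearest start within 50 kb belongs to a list gene, and labels give the newborn-only share. Erythroid and fetal growth genes stand at 83.1% and 82.3% and drug, sterol and bile acid genes at 18.8%, 19.8% and 22.7%, against 56.7% for all genes.

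None of the 10 strongest stage-only promoter peaks of either age belonged to a gene of these lists. The newborn-only peak of DMRTA1, a doublesex-family factor, had 211 in replicate 1 and 59.7 in replicate 2 (IDR 0.00398) and overlapped a peak in all 5 other newborn tissues. GALNT5 had 112 and 43.8, RGS6, a regulator of G protein signalling, 66.4 and 41.8, MC5R, a melanocortin receptor, 39.1 and 41.1, and PTGFR, the prostaglandin F receptor, 74.6 and 33.2, while UPTI had 31.3 and 30.6. The first of the 10, at LOC100153863, had 229 and 64.6. The genes CRHR2, ATL1 and LOC100737142 had such a peak too but also a promoter peak in adult liver.
In adult liver AADAT, an aminotransferase of tryptophan and lysine breakdown, had a stage-only promoter peak with 136 and 128 (IDR 0.000794), and its promoter held no newborn peak. FAM71F1 had 108 and 185 and LOC100153915 106 and 127. The other adult-only promoter peaks of the first 10 were at SLC16A5, AFF1, CHD9, PHEROC, STX1A, DTX2 and ALPL, whose promoters held another peak in newborn liver. The IDR was at most 0.00141 for these 10 adult-only peaks, and it was under 0.05 for 7 of the 10 newborn-only ones.

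Single genes collected many stage-only peaks along their length. SOX5, a factor of cartilage and nerve development that spans 1007 kb, held 51 adult-only, 7 newborn-only and 39 shared newborn peaks. ZBTB20 held 36 adult-only and 11 newborn-only peaks, MAGI1 32 and 13, PARD3 32 and 20 and PTPRK, a receptor phosphatase, 30 and 4. On the newborn side PDE4D, a phosphodiesterase gene of 1509 kb, held 31 newborn-only and 26 adult-only peaks. FNDC3B held 29 and 21, WWOX 29 and 20 and PTPRM 29 and 16. In lists of equal number PDE4D (27 and 29), FNDC3B (21 and 22) and WWOX (18 and 24) held more adult-only peaks. ADAMTS12, a secreted protease, held 27 newborn-only and 4 adult-only peaks, and 26 and 5 with an equal number.

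Genes with the most unequal counts of nearest peaks, chosen after their values were seen, included regulators of development on the newborn side. BCL11A, the repressor of fetal globin genes in other mammals, had 14 newborn-only and 0 adult-only peaks, GLI2, a hedgehog pathway factor, 13 and 0, ESRRB 11 and 0, CELF4 14 and 0 and BMPR1B, a bone morphogenetic protein receptor, 13 and 1. On the adult side SOX5 had 3 and 36, GHR 1 and 23, NCOA2, a coactivator of nuclear receptors, 10 and 24, PPM1L 2 and 17, SORBS2 4 and 18 and IL1R1, the interleukin-1 receptor, 2 and 16.

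The DNA under distal stage-only peaks differed in composition. In the 200 bp around the summit of peaks outside promoters, GC content was 52.7% in newborn-only, 46.7% in adult-only and 51.8% in shared newborn peaks, against 41.9% in 45270 windows spaced evenly along the chromosomes. The CpG count per window was 4.25 in newborn-only and 3.09 in adult-only peaks. Rates of any consensus move with composition, so each was also searched in reversed letter order, which keeps the bases but not the word. Reversed words that hold a CpG, such as those of C/EBP and CTCF, were rare in every class, so a small difference in points says little about composition for them. In all, 27 consensus sequences were searched on both strands, and 11 were more frequent in newborn-only than in adult-only peaks.

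Consensus words of hepatocyte factors were more frequent in adult-only peaks. C/EBP factors, which drive genes of the mature hepatocyte, are represented by TTGCNNAA, found in 16.9% (interval 16.5 to 17.4%) of adult-only and 9.84% (interval 9.54 to 10.1%) of newborn-only peaks, with 13.3% in shared newborn peaks and 9.85% in evenly spaced windows. The reversed word was in 2.13% of adult-only and 1.78% of newborn-only peaks. The ONECUT word ATTGATT was in 5.08% and 2.30%, and in 4.09% of evenly spaced windows. Its newborn-minus-adult difference was -2.78 percentage points, and the reversed word (1.975% and 1.02%) had one of -0.954 points. The HNF4A word CAAAGTCCA was in 1.46% and 0.688%, and an HNF1 word of 11 letters in 0.496% and 0.128%. DBP and related factors of the daily clock bind TTATGTAA, which was in 1.95% of adult-only and 0.437% of newborn-only peaks and in 1.14% of evenly spaced windows. TTATGTAA can match the C/EBP family too, and its reversed word was in 0.729% of adult-only and 0.486% of newborn-only peaks. For the FOXA word TGTTTAC the shares were 5.87% and 3.80%, but the reversed word had a newborn-minus-adult difference of -1.56 percentage points too. Among the stage-only peaks of the 20000 strongest the FOXA order turned, by 0.704 percentage points.

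The CTCF word and several words of blood cell factors, though not those of RUNX, IRF and STAT5, were more frequent in newborn-only peaks. KLF1, the Krüppel-like factor of red cells, binds CCACACCC, which was in 3.04% of newborn-only and 1.58% of adult-only peaks, with 0.957 of the 1.46 percentage points also seen for the reversed word. The composite of a TAL1 half-site and a GATA site was in 0.631% (interval 0.555 to 0.717%) and 0.329% (interval 0.268 to 0.403%), and the reversed composite was rare, in 0.0764% and 0.0964%. It was in 1.30% of newborn-only peaks that also overlapped a newborn spleen peak and in 0.377% of those that did not. The GATA word AGATAAG alone was in 4.31% and 3.78%, and in 7.07% and 1.59% of the stage-only peaks among the 20000 strongest. Among those strongest peaks the KLF1 shares were 1.80% and 1.14%, with intervals that overlap, and the TAL1 composite was in 2 windows of each class. The RUNX word TGTGGTT went the other way over all distal stage-only peaks, with 4.46% (interval 4.25 to 4.67%) in newborn-only and 5.36% (interval 5.10 to 5.63%) in adult-only ones. For the NFE2 word of 10 letters the shares of 0.379% and 0.307% had overlapping intervals.
The SPI1 word AGAGGAAGT, of a myeloid and B cell factor, was in 1.14% and 0.743%, and the AP1 word TGAGTCA in 5.71% and 4.48%. Among peaks that overlapped a newborn spleen peak the SPI1 word was in 2.25% of newborn-only and 2.45% of adult-only ones. Among those that did not, the SPI1 shares were 0.716% and 0.498%. The 12-letter core of the CTCF motif was in 1.31% (interval 1.19 to 1.43%) of newborn-only and 0.307% (interval 0.249 to 0.379%) of adult-only peaks, with 1.85% in shared newborn peaks and 0.0663% in evenly spaced windows. CTCF is the factor that anchors chromatin loops. Its reversed core was in 0.0273% and 0.0143%. A match is a description of letters and does not show that a factor was bound.

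**Figure D5:**
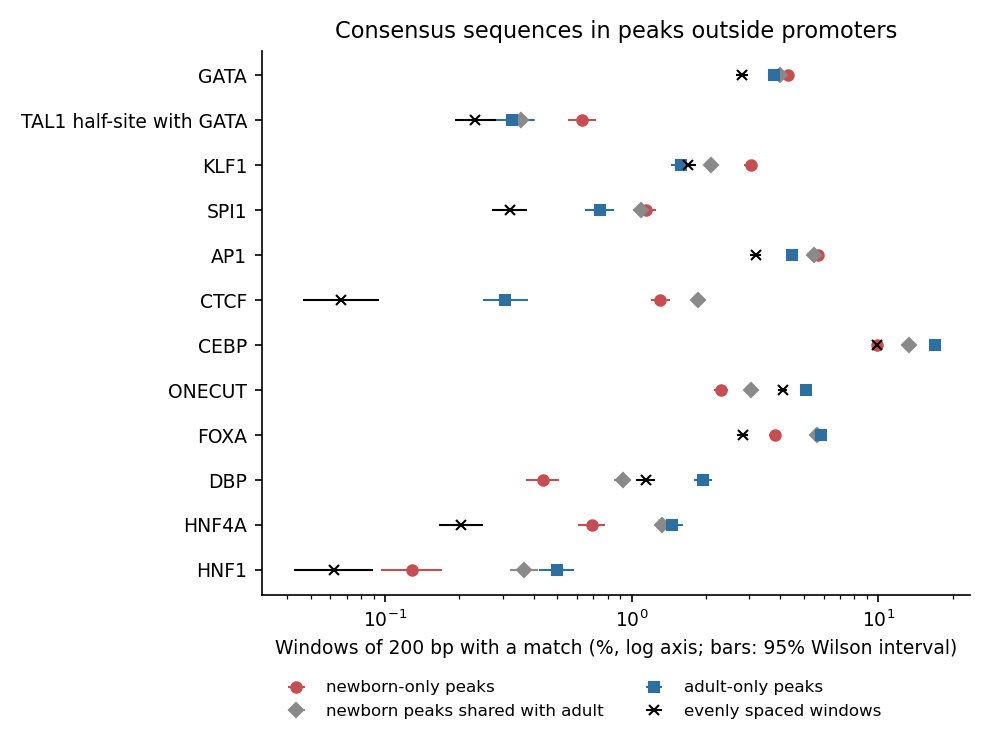
Points give the share of 200 bp windows (horizontal log axis, %) with a match of each consensus for newborn-only, shared newborn and adult-only peaks outside promoters and for evenly spaced windows, with 95% Wilson intervals. CTCF, KLF1 and the TAL1 composite lie to the right in newborn-only peaks, and C/EBP, ONECUT, DBP, HNF4A and HNF1 in adult-only peaks.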

How the data were processed

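ATAC-seq was done on liver of 2 newborn and 2 adult pigs. According to the study's methods, the authors aligned reads to Sscrofa11.1 with Bowtie2, filtered them with SAMtools 1.3.1, called peaks in each replicate with MACS2 and matched replicates with IDR. In the deposited lists, with 1 list per group, each peak carries the −log10 p of each replicate and a score, the scaled IDR, and no read counts. Read totals that the study tabulates were not used here. Groups were taken from the labels. The members, gene lists and consensus words were chosen with earlier results of these data known.

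Peaks on chromosomes 1 to 18 were compared by overlap of 1 bp with Python 3 code (numpy, pandas and scipy), which was tested on simulated data. Ranks follow the smaller replicate −log10 p, with ties in order of position. Genes and sequences came from the RefSeq annotation of the same assembly, and peaks were assigned to the nearest start within 50 kb. A peak that met several features counted as promoter before exon, exon before intron, and intron before the 300 bp past a gene end. Genes named are those of the 10 strongest stage-only promoter peaks per age, the 5 with most stage-only peaks per age, and list members, unless said otherwise, and some of these genes are not reported here. Alternatives were other overlap rules, ranks, IDR limits, promoter sizes, windows and single replicates. The counts of nearest peaks, the split by newborn spleen and the words among the strongest peaks were chosen after seeing the data. Liver at 28 days was not used.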

Additional observations from a re-analysis of the deposited data

How the results depend on the processing

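No paired analysis was possible because no result comes from a test across replicates. Asking that at least 50% of a peak be covered raised the stage-only counts among the 20000 strongest to 1283 newborn and 1684 adult peaks. Among the 5000 strongest they were 29 and 35, among the 50000 strongest 6749 and 7596, and among the 1000 strongest, added after seeing the data, 0 and 3. Equal lists of 50000 peaks gave 20070 newborn-only and 20356 adult-only peaks, and of 20000 peaks 9035 and 9068. The counts fell as fewer peaks entered, while the stage-only share of each list rose. An IDR of 0.05 or lower in both lists left 3563 newborn-only peaks against 34134 adult-only ones, and 2984 and 7084 among the 20000 strongest, and it raised adult-only promoters to 3133. With that limit 0 of the 22 gene lists, in place of 6, had more newborn-only than adult-only promoters. With the limit on the list itself 911 newborn-only and 8126 adult-only peaks remained, and 32 and 89 promoters. Adult-only promoters numbered 590 with an equal number of peaks. The differences in overlap with other newborn tissues and in promoter share moved from 29.8 to 27.5 and from 1.22 to 0.329 percentage points. For the reversed words of GATA, AP1, SPI1 and the TAL1 composite the newborn-minus-adult difference turned to -0.506, -0.419, -0.042 and -0.02 points, and for FOXA among the strongest peaks to 0.704.

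With the interval of 1 replicate in place of the merged interval, newborn-only peaks ranged from 39482 to 39923, adult-only peaks from 29772 to 30304, newborn-only promoters from 988 to 1066 and adult-only promoters from 281 to 337. These lists still hold only peaks called in both replicates. In all, 52 alternative values of the main results, these included, lay within 1.5 times of a count or within the interval of a difference, and 24 did not. The causes of the moves, the part of depth among them, were not tested.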
